A study of Mus musculus with 20 samples.

Results

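The 10 genes described here were Ccno, the D cyclin genes Ccnd1, Ccnd2 and Ccnd3, the E cyclin genes Ccne1 and Ccne2, the kinase genes Cdk2, Cdk4 and Cdk6, and the inhibitor gene Cdkn1b. They were found among the 23373 gene IDs of a count table by their Entrez IDs, and 9 of the 10 passed the filter on low counts that 14343 genes passed in all. The set was chosen by role and by the measured B[a]P difference, Ccno being higher and Cdk6 lower after benzo[a]pyrene (B[a]P), so the B[a]P values of all 10 genes are a description and carry no test.

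RNA was sequenced from 20 libraries of Hepa-1, a mouse hepatoma cell line, in 10 groups of 2. B[a]P, an aromatic hydrocarbon that binds the aryl hydrocarbon receptor (AHR), or its solvent DMSO was given for 8 hours to cells of 3 growth histories. Recovered cells had 20 passages with hexavalent chromium, Cr(VI), followed by 5 without it and were sampled at passage 25; Cr(VI)-grown cells and control-grown cells, which had no Cr(VI), were sampled at passage 25 and at passage 20. The titles of the 12 libraries labelled passage 25 carry the number 27, so the later passage, and with it the 5 passages without Cr(VI), are given as labelled and remain in doubt. The labels print 0.5 mM as the Cr(VI) dose and 5 mM as that of B[a]P, while the title of the series calls the concentrations low, which leaves the units in doubt. All groups are 1 cell line, and the labels do not say that the 2 libraries of a group were separate cultures, so p-values measure only the spread between libraries, which may be technical.

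Libraries held between 20976045 and 37930720 counts. The replicate 2 libraries of passage 25 stood apart. Between the replicates of a passage 25 group, 21% to 56.7% of the tested genes differed over 2-fold, against 1.58% to 2.45% in 3 groups of passage 20 and 32.2% in the fourth, Cr(VI)-grown cells with DMSO. Passage 25 and passage 20 libraries also carry different sample name series, so passage and library set cannot be told apart. Of 13 hepatocyte and hepatoma markers, Alb (826 to 5698 counts scaled to library size, CPM), Afp, Trf, Foxa2, Krt8 and Krt18 were present in every library, whereas Apoa1, Serpina1b, Apob and Hnf4a stayed under 1 CPM. The 5 endothelial markers summed to between 0.0854 and 1.58 CPM and the 5 macrophage markers to between 20.1 and 59.4 CPM, mainly as Csf1r, while Ptprc and Clec4f were at or near 0. The 7 stellate and fibroblast markers summed to between 219 and 896 CPM, mainly as Col1a1 (129.7 to 681 CPM). Pdgfrb, Acta2, Des and Col3a1 also had counts in every library, while Lrat was at 0 in 15 libraries and Col1a2 in 8. The 5 cholangiocyte markers summed to between 446 and 2058 CPM, mostly Krt7. Krt19, Sox9 and Spp1 had counts in every library too, while Epcam was at 0 in 10. Of the endothelial, macrophage, stellate and fibroblast, and cholangiocyte markers 13 were tested. With B[a]P in control-grown cells 1 of them rose, Cd68 (log2 0.88 ± 0.21, edgeR adjusted p = 0.049), where 0.934% of all genes rose. Sox9 was the 1 that fell (-0.88 ± 0.19, edgeR adjusted p = 0.0307), where 1.27% of all genes fell. The part of these markers in the values below was not tested.

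Cyclins bind and activate cyclin-dependent kinases. In G1 phase the D cyclins act with CDK4 and CDK6, and the E cyclins with CDK2; both kinds of complex phosphorylate the retinoblastoma protein, which releases E2F factors and lets the cell enter S phase, and p27, the product of Cdkn1b, restrains CDK2 complexes. Cyclin O, the product of Ccno, is a divergent cyclin best known from multiciliated cells, where it is needed to make the many centrioles that anchor cilia. The AHR, once bound by a ligand such as B[a]P, pairs with ARNT and binds DNA at sites with the core letters GCGTG.

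Promoter sequences were available from RefSeq (GRCm38.p6) for 7 of the 10 genes, as the 250 bases before the start that its promoter table uses. That start lies 2.89 kb inside the annotated gene span for Cdk6, 0.287 kb inside it for Mcidas and 88.4 kb inside it for 1 of the 2 starts of Ccnd3, and at the end of the span for the others. Those of Ccno (chr13:112987552-112987801, plus strand), Cdk6 (chr5:3343643-3343892, plus strand) and Ccne1 (chr7:38107491-38107740, minus strand) are shown because these genes differed most with B[a]P among the 7, and that of Mcidas (chr13:112993618-112993867, plus strand) because it is the gene next to Ccno. Each is written 5′ to 3′ along the gene, and capitals mark the AHR core letters, which read CACGC where they lie on the opposite strand.
Ccno: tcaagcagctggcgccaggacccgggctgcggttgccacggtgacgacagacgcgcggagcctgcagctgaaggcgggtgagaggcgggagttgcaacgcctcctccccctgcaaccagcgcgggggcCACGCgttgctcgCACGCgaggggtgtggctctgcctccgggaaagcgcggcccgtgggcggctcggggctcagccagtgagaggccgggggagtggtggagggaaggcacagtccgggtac
Cdk6: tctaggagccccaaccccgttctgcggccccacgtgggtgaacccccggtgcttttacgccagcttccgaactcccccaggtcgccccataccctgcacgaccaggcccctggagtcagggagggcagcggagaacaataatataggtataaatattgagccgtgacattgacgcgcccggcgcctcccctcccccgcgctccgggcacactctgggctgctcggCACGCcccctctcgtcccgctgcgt
Ccne1: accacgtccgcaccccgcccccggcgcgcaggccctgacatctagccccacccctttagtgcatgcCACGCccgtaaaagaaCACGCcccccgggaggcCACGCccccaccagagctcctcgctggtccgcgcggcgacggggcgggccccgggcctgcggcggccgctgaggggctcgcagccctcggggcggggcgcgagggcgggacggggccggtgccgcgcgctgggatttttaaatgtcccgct
Mcidas: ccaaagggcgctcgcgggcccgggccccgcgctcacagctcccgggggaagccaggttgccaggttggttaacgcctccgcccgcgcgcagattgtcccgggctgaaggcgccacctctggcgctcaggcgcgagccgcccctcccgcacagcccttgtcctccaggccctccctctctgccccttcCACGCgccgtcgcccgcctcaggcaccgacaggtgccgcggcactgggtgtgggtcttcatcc
GCGTG was searched on both strands, along with the E2F letters TTTCCCGC, the antioxidant response letters TGACNNNGC and the E-box CACGTG. Ccno held 2 GCGTG matches, Ccne1 held 3, and Cdk6, Cdkn1b and Mcidas held 1 each. Cdk2 and Cdk4 had no GCGTG match in this window, and of the 2 annotated Ccnd3 promoters 1 had a match. Over all 32851 promoter windows of the table, 28.2% held at least 1 match and 8.63% held 2 or more; of the 9178 windows with at least 60% G and C, 53.9% and 21.6% did. All the promoters shown were that rich in G and C (66% in Cdk6 to 76% in Ccne1), so a match in them is a description and not a site. Cdk4 held 4 CACGTG matches and Cdk6 held 1, where 6.02% of all windows and 9.32% of the G and C rich windows had any. Cdk4 held 2 TGACNNNGC matches and Ccnd3 held 1 (10.2% of all and 12.8% of rich windows). Cdk2 alone among the 7 genes held TTTCCCGC (0.895% of all and 1.78% of rich windows).

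Levels of different genes were compared as CPM per kilobase of exon. Ccnd1 had the highest median over the 20 libraries, 203 CPM per kb with a range of 107 to 272, and Cdk4 followed at 156, from 94.3 to 397. These ranges overlapped, as did those of Ccne1 (median 15.1), Cdk2 (14.3) and Ccnd3 (11.8), whose medians were over 10 times lower than those of the first pair. Cdkn1b (5.82) and Ccne2 (4.24) came next, followed by Ccno (0.636) and Cdk6 (0.517). Ccnd2 had 8 counts in all, spread over 6 libraries with no more than 2 in any of them, and did not pass the filter; the 14 libraries without a count allow a level of up to 0.0763 to 0.183 CPM, the worth of 3 counts, as far as counting error goes. Ccnd1 made up 84.4% to 96.3% of the summed D cyclin level per kb, and Cdk6 made up 0.0626% to 0.856% of the summed Cdk4 and Cdk6 level per kb.

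**Figure D1:**
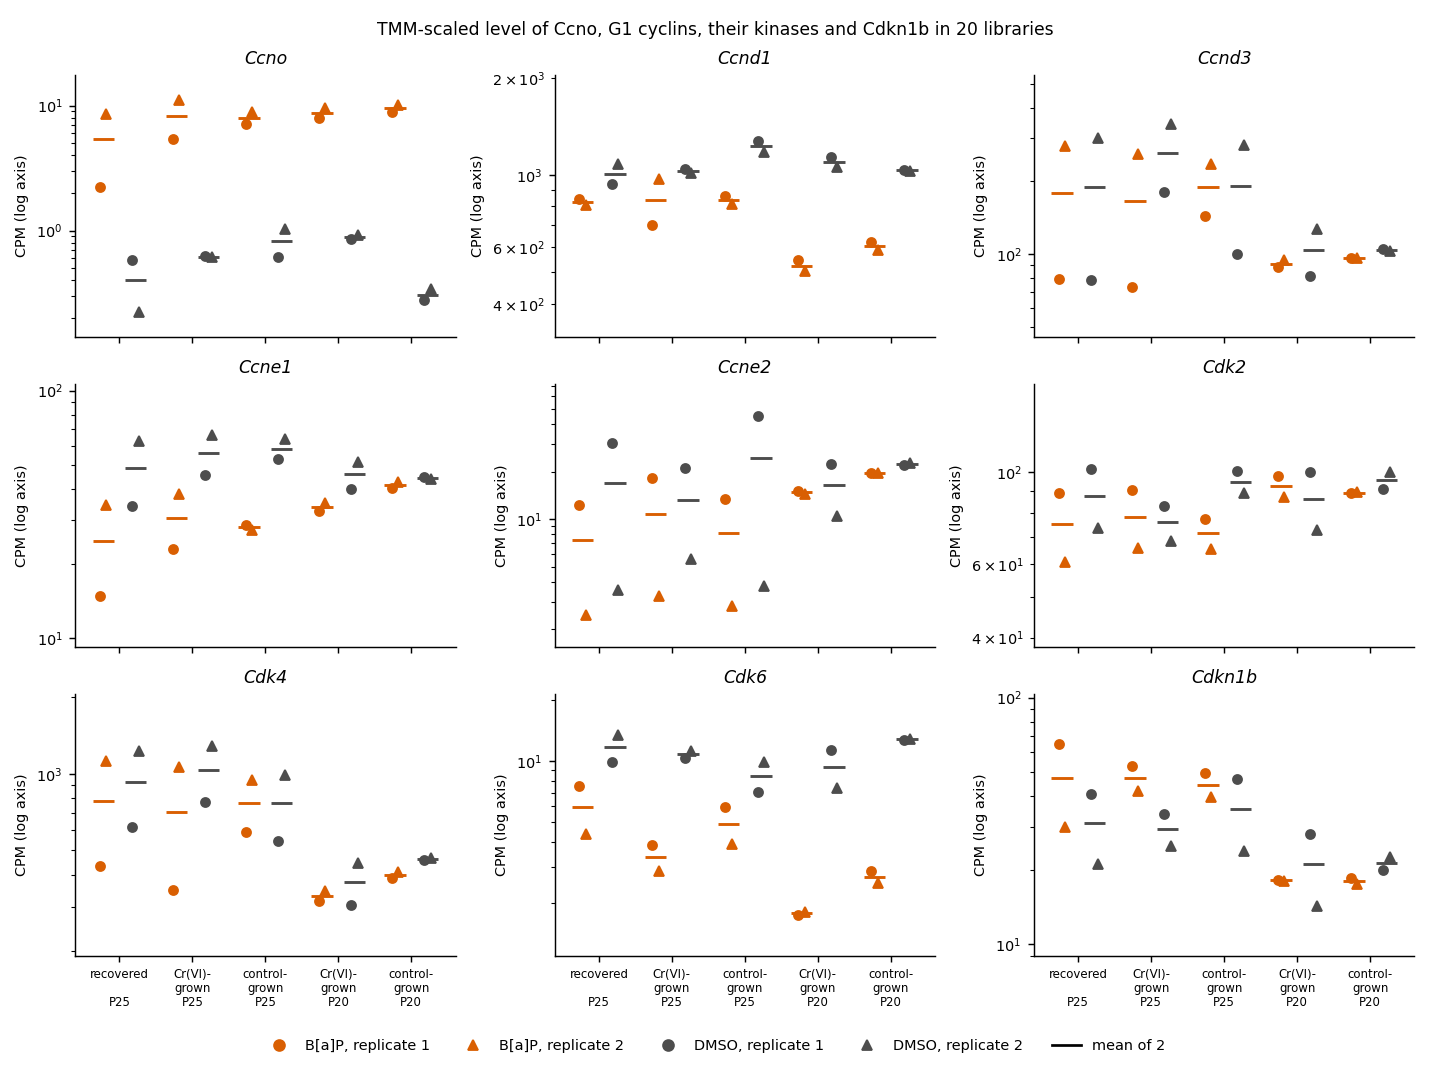
Level of 9 genes in each of the 20 libraries, in CPM on a log axis, with B[a]P libraries in orange left of DMSO libraries in grey for each growth history and passage (P25, P20), circles for replicate 1, triangles for replicate 2 and a line at their mean. Ccno lies between 2.22 and 11.1 CPM with B[a]P and between 0.224 and 1.03 CPM with DMSO, while Ccne2, Ccnd3 and Cdk4 split by replicate at passage 25.

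Ccno (Entrez ID 218630, chromosome 13 from 112987802 to 112990778) stood at about 1 CPM or less with DMSO and at several CPM with B[a]P in all 5 settings of growth history and passage. In bulk RNA, more cells with the transcript and more transcript per cell cannot be told apart. In recovered cells at passage 25 it had 2.22 and 8.63 CPM with B[a]P, against 0.585 and 0.224 CPM with DMSO. In Cr(VI)-grown cells it had 5.39 and 11.1 CPM with B[a]P, against 0.621 and 0.609 CPM with DMSO, at passage 25. At passage 20 the Cr(VI)-grown values were 7.93 and 9.61 CPM with B[a]P, against 0.848 and 0.913 CPM with DMSO. Every B[a]P library lay above every DMSO library, also across settings, and the B[a]P libraries of replicate 1 in recovered and in Cr(VI)-grown cells were the lowest at passage 25.

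In control-grown cells Ccno had 7.19 and 8.9 CPM with B[a]P, against 0.611 and 1.03 CPM with DMSO, at passage 25, and 8.82 and 10.2 CPM with B[a]P, against 0.276 and 0.338 CPM with DMSO, at passage 20. The DMSO values rest on 5 to 32 counts and the B[a]P values on 71 to 395. As a log2 fold change with its standard error (SE) from edgeR's fit over all genes, the difference was 3.70 ± 0.65 in recovered cells, 3.52 ± 0.45 in Cr(VI)-grown cells and 4.12 ± 0.47 in control-grown cells, the last 2 over both passages. Within passages it was 3.31 ± 0.63 at passage 25 and 4.93 ± 0.69 at passage 20 in control-grown cells. Without the replicate 2 libraries of passage 25, which leaves 1 library in each group there, the value in recovered cells was 1.89. Both B[a]P libraries lay above both DMSO libraries in all 5 settings for Ccno, and 255 of 14343 genes (1.78%) did the same; since the gene was chosen for this, the share is given as background alone.

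Cdk6 (Entrez ID 12571, chromosome 5 from 3341004 to 3531008), which encodes a partner of the D cyclins, was lower with B[a]P in each of the 5 settings. In recovered cells at passage 25 it had 7.57 and 4.36 CPM with B[a]P, against 9.94 and 13.4 CPM with DMSO. Cr(VI)-grown cells had 3.86 and 2.88 CPM with B[a]P, against 10.4 and 11.2 CPM with DMSO, at passage 25, and 1.75 and 1.8 CPM with B[a]P, against 11.4 and 7.38 CPM with DMSO, at passage 20. The lowest level of the gene was thus in cells grown with Cr(VI) and given B[a]P at passage 20, where the 2 libraries held 51 and 60 counts.

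In control-grown cells Cdk6 had 5.94 and 3.92 CPM with B[a]P, against 7.07 and 9.89 CPM with DMSO, at passage 25, and 2.87 and 2.5 CPM with B[a]P, against 12.7 and 12.9 CPM with DMSO, at passage 20. Groups did not overlap within any setting, but the recovered B[a]P library at 7.57 CPM was above the control-grown DMSO library at 7.07 CPM. The log2 fold change was -0.97 ± 0.37 in recovered cells, -2.04 ± 0.27 in Cr(VI)-grown cells and -1.51 ± 0.27 in control-grown cells. It was -0.78 ± 0.37 in control-grown cells at passage 25 and -2.25 ± 0.39 at passage 20; this difference between passages was not tested. Without the replicate 2 libraries of passage 25, so with 1 library in each group there, it was -0.42 in recovered cells and -0.22 in control-grown cells at passage 25. Both B[a]P libraries lay below both DMSO libraries in all 5 settings for 262 genes (1.83%).

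Ccnd1 (Entrez ID 12443, chromosome 7 from 144929931 to 144939831), the main D cyclin gene in these cells, was also lower with B[a]P in all 5 settings. It had 844 and 806 CPM with B[a]P, against 936 and 1079 CPM with DMSO, in recovered cells. Ccnd1 in Cr(VI)-grown cells stood at 699 and 971 CPM with B[a]P, against 1041 and 1015 CPM with DMSO, at passage 25, and 545 and 505 CPM with B[a]P, against 1134 and 1059.5 CPM with DMSO, at passage 20. The margin was narrow in the replicate 2 libraries of Cr(VI)-grown cells at passage 25, with a log2 difference of -0.06 between B[a]P and DMSO.

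In control-grown cells Ccnd1 had 862 and 816 CPM with B[a]P, against 1279 and 1178 CPM with DMSO, at passage 25, and 620.3 and 585 CPM with B[a]P, against 1038 and 1033 CPM with DMSO, at passage 20. The log2 fold change was -0.29 ± 0.28 in recovered, -0.68 ± 0.20 in Cr(VI)-grown and -0.67 ± 0.20 in control-grown cells, a 1.59-fold lower level in the last. It was between -1.06 and -0.78 in the 2 histories at passage 20 and between -0.55 and -0.29 in the 3 at passage 25.

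Ccne1 (Entrez ID 12447, chromosome 7 from 38097984 to 38107490) was lower with B[a]P in 10 of 10 pairs of libraries with the same replicate number, and without overlap in 4 of 5 settings, which 548 genes (3.82%) showed in the same direction in at least 4. It had 14.8 and 34.5 CPM with B[a]P, against 34.3 and 62.7 CPM with DMSO, in recovered cells, the 1 setting with an overlap. Ccne1 in Cr(VI)-grown cells stood at 22.9 and 38.1 CPM with B[a]P, against 45.6 and 66.3 CPM with DMSO, at passage 25, and at 32.5 and 35.1 CPM with B[a]P, against 40.2 and 51.6 CPM with DMSO, at passage 20. Control-grown cells had 28.8 and 27.4 CPM with B[a]P, against 53 and 63.5 CPM with DMSO, at passage 25. At passage 20 the same cells had 40.4 and 42.8 CPM with B[a]P, against 44.8 and 43.9 CPM with DMSO. The log2 fold change was thus -1.05 ± 0.42 at passage 25 and -0.09 ± 0.41 at passage 20 in control-grown cells, and -0.87 ± 0.41 and -0.44 ± 0.41 at these passages in Cr(VI)-grown cells; the difference between passages was not tested.

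Ccne2 (Entrez ID 12448, chromosome 4 from 11190433 to 11204779), the other E cyclin gene, followed the replicate number at passage 25 more than any treatment. Its replicate 1 libraries of passage 25 held 12.3 to 44.8 CPM and its replicate 2 libraries 2.48 to 5.6 CPM. Within each replicate number at passage 25 it was lower with B[a]P than with DMSO, in replicate 1 at 13.5 against 44.8 CPM and in replicate 2 at 2.81 against 3.77 CPM in control-grown cells. At passage 20 the control-grown libraries held 19.6 and 19.5 CPM with B[a]P, against 21.9 and 22.6 CPM with DMSO. Its log2 fold changes had SEs near 1 and were -1.20 ± 1.24 in recovered, -0.22 ± 0.87 in Cr(VI)-grown and -0.88 ± 0.87 in control-grown cells. Ccne1 took 59.7% to 74% of the summed E cyclin level per kb in replicate 1 libraries of passage 25 and 92.8% to 95.9% in their replicate 2 libraries.

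The other kinases, Ccnd3 and Cdkn1b had B[a]P fold changes that were small beside their SEs or mixed in direction. Cdk2, the kinase of the E cyclins, was between 60.8 and 98.1 CPM with B[a]P and between 68.4 and 102 CPM with DMSO, and its log2 fold changes were -0.23 ± 0.30 in recovered, 0.07 ± 0.21 in Cr(VI)-grown and -0.25 ± 0.21 in control-grown cells. Cdk4, the D cyclin kinase with the higher level, was between 315 and 1127 CPM with B[a]P and between 306 and 1290.5 CPM with DMSO, with log2 fold changes of -0.25 ± 0.59, -0.36 ± 0.41 and -0.11 ± 0.41 in the same order of histories. Ccnd3 ranged from 73 to 278 CPM with B[a]P and from 78.3 to 342 CPM with DMSO, with log2 fold changes of -0.08 ± 0.75, -0.42 ± 0.53 and -0.06 ± 0.53. These 3 genes overlapped between treatments in 3 to 4 of the 5 settings.

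Cdkn1b (Entrez ID 12576, chromosome 6 from 134920401 to 134925525) had 64.8 and 30 CPM with B[a]P, against 40.6 and 21.2 CPM with DMSO, in recovered cells. Cr(VI)-grown cells had 52.6 and 41.8 CPM with B[a]P, against 33.7 and 25.1 CPM with DMSO, at passage 25, and 18.3 and 18.1 CPM with B[a]P, against 27.9 and 14.3 CPM with DMSO, at passage 20. Control-grown cells had 49.3 and 39.5 CPM with B[a]P, against 46.8 and 23.8 CPM with DMSO, at passage 25, and 18.6 and 17.6 CPM with B[a]P, against 20.1 and 22.5 CPM with DMSO, at passage 20. It was higher with B[a]P in 7 of the 10 pairs of libraries and lower in 3, all 6 pairs of passage 25 being among the higher ones. The log2 fold change was 0.62 ± 0.46 in recovered cells, 0.23 ± 0.33 in Cr(VI)-grown cells and 0.05 ± 0.33 in control-grown cells.

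**Figure D2:**
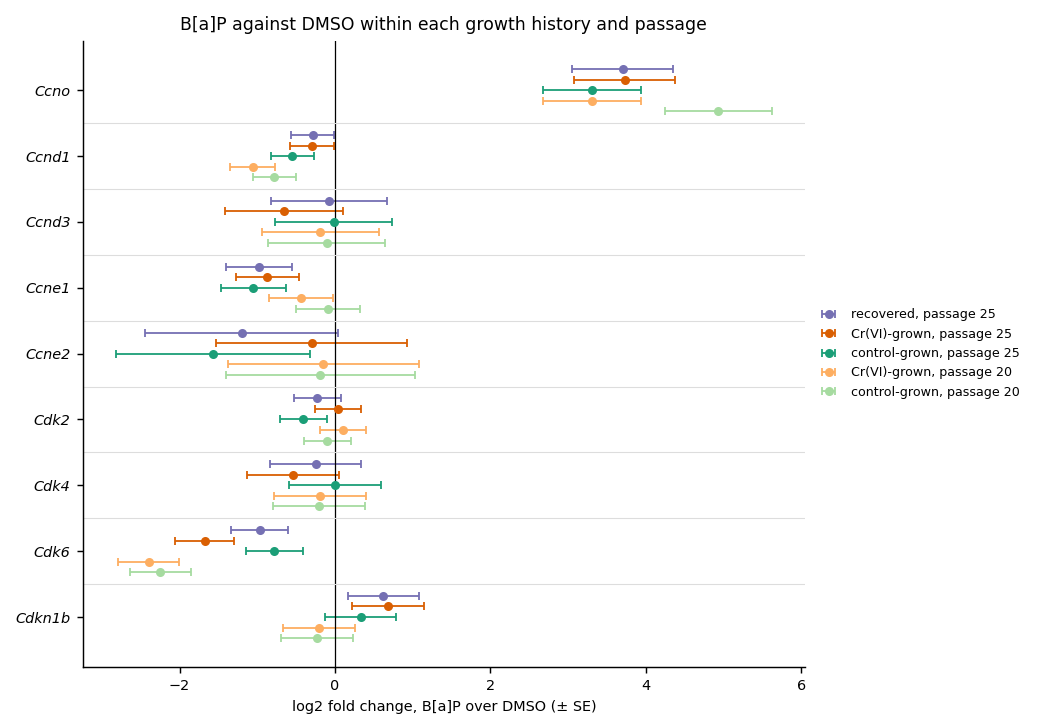
Log2 fold change of B[a]P over DMSO (points) with its SE (bars) for 9 genes in each of the 5 settings of growth history and passage. Ccno lies between 3.31 and 4.93, Cdk6 between -2.40 and -0.78, and Ccnd1 and Ccne1 below 0 in each setting; the other genes have SEs that reach or cross 0 in most settings.

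Over the 20 libraries Ccno and Cdk6 ran in opposite directions (Pearson r = -0.91 of log2 CPM) and Ccnd1 ran with Cdk6 (r = 0.86), all 3 genes differing between the treatments. Cdk4 ran with Ccnd3 (r = 0.93) and Cdk2 with Ccne2 (r = 0.84), while Ccnd3 and Ccne2 ran in opposite directions (r = -0.84), and each of these 4 genes differed between replicates 1 and 2 in the same direction in all 6 groups of passage 25. The genes most like Ccno over the 20 libraries were Mettl7a1 (r = 0.951), Cyp1a1 (r = 0.95), Mettl7a2 (r = 0.95), Vasn (r = 0.916) and Srxn1 (r = 0.915). Cyp1a1, the classical target of the AHR, ranged from 25.1 to 2089 CPM, and Srxn1 encodes an enzyme that repairs oxidised peroxiredoxins. Mettl7a1 and Mettl7a2 are close paralogs whose reads may be shared, so they count as 1 pattern at most. Those most like Cdk6 were Ppargc1b (r = 0.95), a transcriptional coactivator gene, Mb21d2 (r = 0.933), the receptor gene Gpr39 (r = 0.931), Sh3rf1 (r = 0.929) and Rasgef1b (r = 0.925), all with negative B[a]P log2 fold changes in the 3 histories. Libraries share treatment, set and depth, so these values describe the libraries and have no p.

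Cdk6 has by far the longest genomic span of the set, 190 kb, against 94.6 kb for Ccnd3 and 2.98 kb for Ccno. Span classes over 100 kb had lower median B[a]P fold changes than those under 100 kb in each history. Under 100 kb the medians fell from class to class in control-grown cells only. Among the 482 tested genes with a span of 150 to 250 kb the median log2 fold change was -0.321 in recovered, -0.449 in Cr(VI)-grown and -0.752 in control-grown cells, and 73.2%, 80.3% and 87.6% of them were negative. Cdk6 was below that median in each history, and 13.7%, 1.87% and 9.96% of these genes lay below Cdk6. Of genes under 10 kb, where Ccno, Ccnd1, Ccne1, Cdk2, Cdk4 and Cdkn1b belong, the median was 0.0136, -0.0331 and 0.125. The part of span in the Cdk6 value was not tested.

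**Figure D3:**
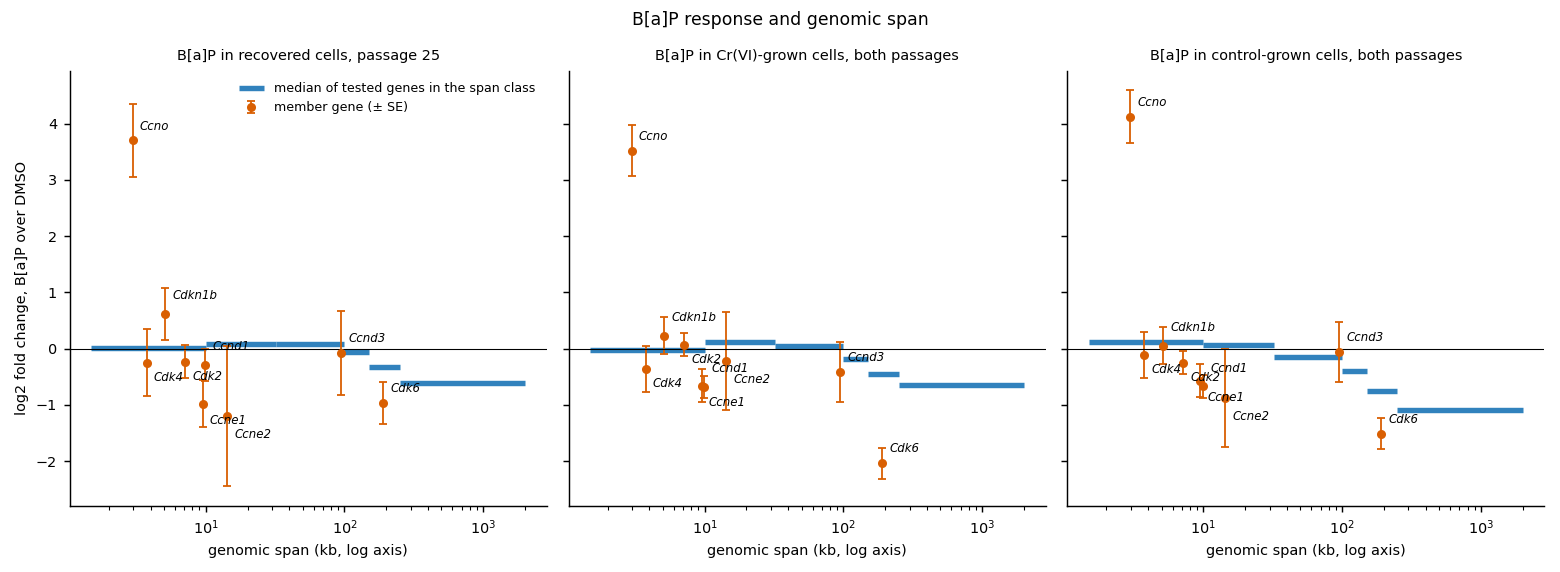
Log2 fold change of B[a]P over DMSO against genomic span (kb, log axis) in recovered, Cr(VI)-grown and control-grown cells, with blue bars at the median of all tested genes in each span class and orange points with SE for the 9 genes. The medians are between -0.0331 and 0.125 under 10 kb and between -1.1 and -0.62 over 250 kb, and Cdk6 lies below its class.

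No gene of the count table within 100 kb of Ccno or Cdk6 passed the test with B[a]P in the fit without a block. Around Ccno the genes with a row in the count table are Mtrex, Dhx29, Mcidas, Mir449c, Mir449b, Mir449a and Gpx8. A neighbour without a row, such as Cdc20b, could not be measured. Mcidas, which encodes the multicilin factor that starts the multiciliated cell programme, begins 2.8 kb after Ccno and had 0 to 0.617 CPM; its B[a]P log2 fold change was 0.44 ± 1.17 in recovered, 0.19 ± 0.69 in Cr(VI)-grown and 0.32 ± 0.69 in control-grown cells. The RNA exosome helicase gene Mtrex (-0.34 ± 0.40), Dhx29 (-0.13 ± 0.35) and Gpx8 (0.09 ± 0.19) were within 1 SE of 0 in control-grown cells, none of the 4 passed edgeR's test in any history (adjusted p from 0.991 to 1), and the 3 microRNA genes had no counts. Around Cdk6, Fam133b (-0.35 ± 0.65), 1700109H08Rik (0.26 ± 0.80) and Rbm48 (-0.06 ± 0.57) were also within 1 SE of 0 in control-grown cells. With the replicate number as a block, 1700109H08Rik passed in Cr(VI)-grown cells (log2 1.29 ± 0.78 and adjusted p = 0.81 without the block, adjusted p = 0.0362 with it), and none of the other neighbours passed in any history.

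The study also asked whether growth with Cr(VI) changes the cells and their response to B[a]P, and these comparisons can be tested for the 9 genes, although they share libraries with the B[a]P comparisons. None of them passed, for growth with Cr(VI) under DMSO, edgeR's quasi-likelihood test with Benjamini-Hochberg adjustment, and 0 of all 14343 genes (0%) did; 685 genes, none of the 9 among them, were under an unadjusted p of 0.05, and DESeq2 called 13. With the replicate block 531 genes (3.7%) were called, and again none of the 9. Over both passages the log2 fold change was 0.56 ± 0.44 for Ccno (adjusted p = 0.895), -0.09 ± 0.20 for Ccnd1, -0.05 ± 0.26 for Cdk6 and -0.00 ± 0.29 for Ccne1. The remaining 5 genes were between -0.65 ± 0.87 (Ccne2) and 0.23 ± 0.53 (Ccnd3).

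The Ccno value had opposite signs at the 2 passages, a difference that was not tested. At passage 25 Ccno had 0.621 and 0.609 CPM in Cr(VI)-grown cells with DMSO, against 0.611 and 1.03 CPM in control-grown cells (log2 -0.39 ± 0.62, edgeR adjusted p = 0.971). Without the replicate 2 libraries of passage 25, which leaves 1 library in each group there, this value was 0.12, so its sign rests on those libraries. At passage 20 it had 0.848 and 0.913 CPM in Cr(VI)-grown cells, against 0.276 and 0.338 CPM in control-grown cells (log2 1.50 ± 0.63, unadjusted p = 0.0344, adjusted p = 0.73 by edgeR). These passage 20 values rest on 32 and 22 counts in Cr(VI)-grown cells, against 7 and 12 in control-grown cells, and they did not pass the correction.

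In recovered cells, which had left Cr(VI) 5 passages earlier, none of the 9 genes passed the test against control-grown cells under DMSO. Ccno had 0.585 and 0.224 CPM in recovered cells, against 0.611 and 1.03 CPM in control-grown cells (log2 -0.96 ± 0.63). Cdk6 had 9.94 and 13.4 CPM in recovered cells, against 7.07 and 9.89 CPM in control-grown cells (log2 0.46 ± 0.37). All 9 adjusted p were 1 in edgeR's fit. Of all genes 0 (0%) were called by edgeR, with 146 under an unadjusted p of 0.05, and 0 by DESeq2.

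The interactions ask whether the B[a]P difference itself depends on growth history. For Ccno the difference of the B[a]P log2 fold changes was 0.39 ± 0.84 for recovered less control-grown cells and -0.60 ± 0.59 for Cr(VI)-grown less control-grown cells. The second value was 0.42 ± 0.84 at passage 25 and -1.61 ± 0.85 at passage 20, where the DMSO level of control-grown cells rests on 7 and 12 counts. For Cdk6 the interaction was -0.19 ± 0.52 with recovery and -0.52 ± 0.37 with growth in Cr(VI), and for Ccnd1 it was 0.26 ± 0.40 and -0.02 ± 0.28. Adjusted p in edgeR's test were 1 for all 9 genes in both interactions, and 0 of 14343 genes (0%) were called in either, with 30 under an unadjusted p of 0.05 for recovery and 60 for growth in Cr(VI), and 0 by DESeq2. Without the replicate 2 libraries of passage 25, which leaves 1 library in each group there, the interaction for Ccno with recovery was -1.69. Its interaction with growth in Cr(VI) at passage 25 was then -0.56. The signs of both values thus rest on those libraries.

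**Figure D4:**
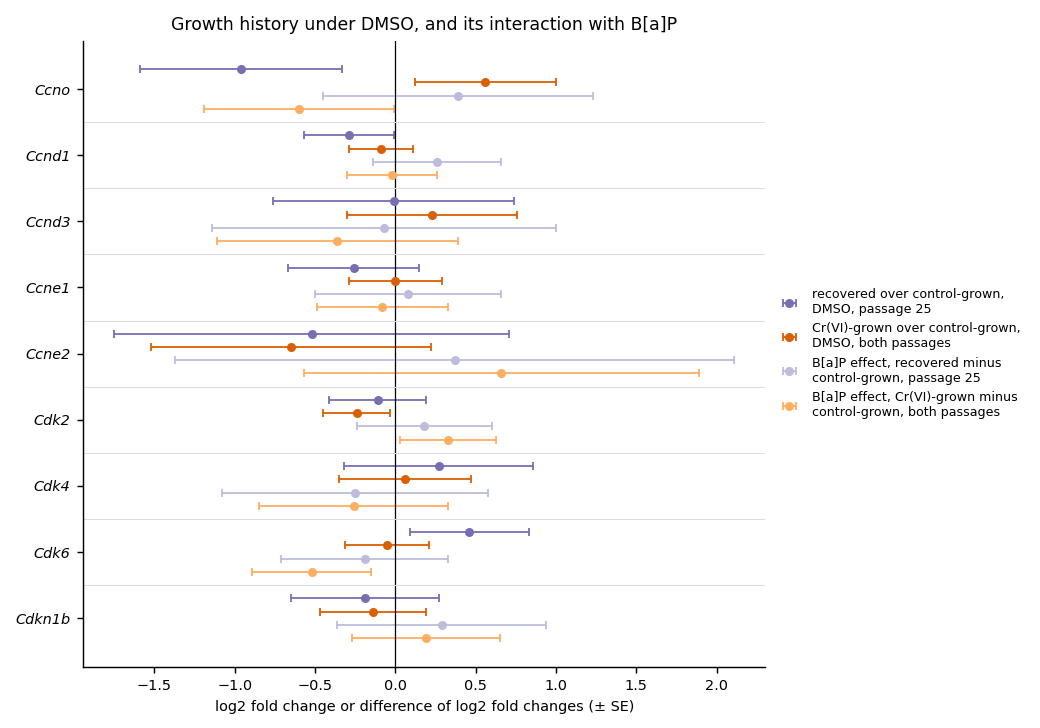
Log2 fold change of growth history under DMSO, and difference of the B[a]P log2 fold changes between histories (points), with SE (bars), for 9 genes. None of the 36 values passed edgeR's adjusted test, and Ccne2 has the widest bars, with SEs of 0.87 to 1.74.

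Between passage 25 and passage 20, over the 4 groups present at both, 2 of the 9 genes passed the test, Cdk4 and Cdkn1b, where 2779 of 14343 genes (19.4%) did, so the count is near the background. Cdkn1b had 23.8 to 52.6 CPM in the 8 libraries of passage 25, against 14.3 to 27.9 CPM in the 8 of passage 20 (log2 0.97 ± 0.23, edgeR adjusted p = 0.0132; 1.18 ± 0.19 with the block). Cdk4 had 349.7 to 1290.5 CPM at passage 25, against 306 to 467 CPM at passage 20 (log2 1.06 ± 0.30, edgeR adjusted p = 0.026). Its replicate 1 libraries of passage 25 held 349.7 to 773 CPM and its replicate 2 libraries 945 to 1290.5 CPM. With the block the Cdk4 value was 0.56 ± 0.17 (edgeR adjusted p = 0.0282), and without the replicate 2 libraries of passage 25 it was 0.53. Between passages the block compares fitted replicate 1 levels, so its values for Cdk4 and Cdkn1b are no independent check. The call for Cdk4 ended when any 1 of 11 libraries was left out. At passage 25 these were the replicate 2 libraries of all 4 groups. At passage 20 they were both libraries of control-grown cells with either treatment and both of Cr(VI)-grown cells with B[a]P. Replicate 1 of Cr(VI)-grown cells with DMSO was the last. Each such fit also reran the count filter with a smallest group of 1, so the loss cannot be credited to the library alone. Ccnd3 (1.01 ± 0.38, adjusted p = 0.0788) and Ccnd1 (0.33 ± 0.14, adjusted p = 0.117) did not pass in edgeR's fit, whereas DESeq2 called both (adjusted p = 0.0335 and 0.00209). Between these passages 3 of the 24 tested markers rose, Alb among them (1.97 ± 0.40, edgeR adjusted p = 0.00497), and 6 fell, where 10.1% of all genes rose and 9.29% fell. The part of the markers in these values was not tested.

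Of 39 other genes of G1 and S phase control, 36 were tested, and Cdkn1a was the 1 that rose with B[a]P in control-grown cells, where 316 genes passed (2.2%), 134 (0.934%) rising and 182 (1.27%) falling; none of the 36 fell. The median log2 fold change of the 36 was -0.37, against -0.02 over all tested genes, and 33 were negative, against 52.4% of all genes. Cdkn1a, which encodes the CDK inhibitor p21, had 673 and 1171 CPM with B[a]P, against 176 and 219 CPM with DMSO, at passage 25, and 1066 and 1072 CPM with B[a]P, against 188 and 188 CPM with DMSO, at passage 20 (log2 2.37 ± 0.39, edgeR adjusted p = 0.0075). That call ended without either DMSO library of control-grown cells at passage 20, in fits that also reran the count filter. Cdkn1c had 19 counts in 4 libraries, so no fold is given; of the rest Mycn had the lowest fitted value, from at most 12 counts in a library (adjusted p = 0.465).

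With the replicate block 2 of the 36 rose, Cdkn1a and Fbxl12, and 13 fell, where 16.7% of all genes passed, 7.57% rising and 9.15% falling. The numbers pair the libraries at passage 25 and not at passage 20. Among the 13, chosen for mention after their values were seen, were E2f8, a repressor of E2F targets (log2 -1.48 ± 0.37 without the block, adjusted p = 0.0668 without and 0.000656 with it), the activating E2F gene E2f2 (-1.22 ± 0.45, adjusted p = 0.25 and 0.00234), the CDK4 and CDK6 inhibitor gene Cdkn2c (-0.95 ± 0.24, adjusted p = 0.0603 and 0.0051) and Myc (-0.79 ± 0.22, adjusted p = 0.1 and 0.00539). E2f8 had 21.3 and 14.5 CPM with B[a]P, against 42.9 and 29.7 CPM with DMSO, at passage 25, and 31.2 and 24.4 CPM with B[a]P, against 112 and 101 CPM with DMSO, at passage 20. The remaining 9 were Ccna2, Mnat1, Cdkn2d, Rbl1, E2f4, Tfdp2, Skp2, Fbxw7 and Cables1.

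None of the 36 passed with B[a]P in Cr(VI)-grown cells, where 135 genes passed (0.941%), 69 (0.481%) rising and 66 (0.46%) falling, and their median was -0.12, against 0.02 over all genes. The 2 largest values were those of Cables1 (-1.56 ± 0.40, adjusted p = 0.111), whose product binds cyclin-dependent kinases, and Cdkn1c, which is left out as above. With the block 2 rose (5.82% of all genes) and 5 fell (5.47%), Cdkn1a (1.28 ± 0.24, adjusted p = 0.00448) and Fbxl12 (0.58 ± 0.14, adjusted p = 0.0147) being those that rose. In recovered cells none passed, where 8 genes passed (0.0558%), 7 (0.0488%) rising and 1 (0.00697%) falling; the largest values were those of Cdkn1a (1.80 ± 0.54, adjusted p = 0.632, or 0.0295 with the block) and Mycn (-1.14 ± 1.26). For growth with Cr(VI) under DMSO, recovery and both interactions none passed, and the largest values were those of Cdkn1a (1.36 ± 0.38) and Rbl1 (-0.82 ± 0.59) with Cr(VI), Cables1 (1.01 ± 0.56) and Cdkn2c (-0.69 ± 0.33) with recovery. In the interactions they were those of Mycn (1.89 ± 1.34) with Cr(VI), and of Mycn (-0.68 ± 1.72) and E2f5 (0.65 ± 1.36) with recovery. The block called 3 of the 36 for growth with Cr(VI), where 1.95% of all genes rose and 1.76% fell: Cdkn1a (adjusted p = 0.0251), Fbxl12 (adjusted p = 0.0358) and the pocket protein gene Rbl1 (adjusted p = 0.0495).

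**Figure D5:**
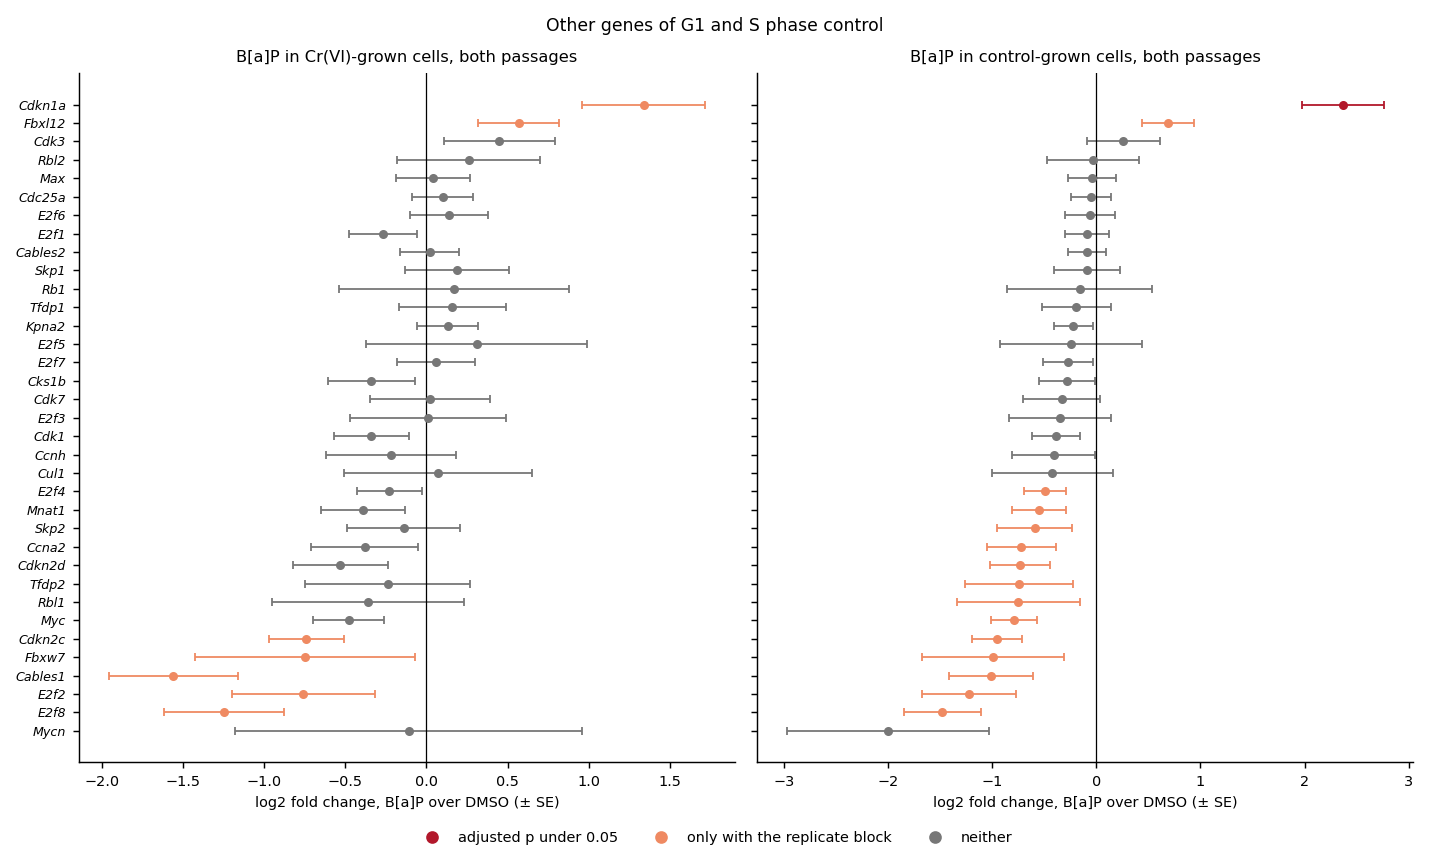
Log2 fold change of B[a]P over DMSO (points) with its SE (bars) for 35 other genes of G1 and S phase control in Cr(VI)-grown cells (left) and control-grown cells (right), ordered by the values in control-grown cells; Cdkn1c, with 19 counts in all, is not drawn. Dark red marks an adjusted p under 0.05 in the fit without a block, orange one only with the replicate block; Cdkn1a stands at 2.37 in control-grown cells.

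Of 29 less studied cyclin and kinase genes 28 were tested, and none passed with B[a]P in any of the 3 histories, for growth with Cr(VI), recovery or either interaction. The B[a]P value of largest size in control-grown cells was that of Cdk14 (-1.56 ± 0.73), which spans 577 kb. With the block 2 of the 28 rose in control-grown cells, where 7.57% of all genes did, and 1 fell, where 9.15% did. Those that rose were the cyclin G1 gene Ccng1 (0.81 ± 0.73 without the block, adjusted p = 0.914 without and 0.0107 with it) and Cdk20 (0.58 ± 0.32, adjusted p = 0.58 and 0.0292), and the 1 that fell was Cdk14 (adjusted p = 0.441 and 0.0382). The block called 1 in Cr(VI)-grown cells, the cyclin F gene Ccnf, which fell (-0.63 ± 0.40, adjusted p = 0.838 without and 0.0137 with it, where 5.47% of all genes fell), and none in recovered cells. The largest values in Cr(VI)-grown cells were those of Cdk14 (-0.94 ± 0.72) and the splicing-related cyclin gene Ccnl1 (0.89 ± 0.72), and in recovered cells those of Ccnt1 (1.54 ± 0.97) and Cdk14 (-1.30 ± 1.12). The median of the 28 genes in control-grown cells was 0.06, against -0.02 over all genes. For growth with Cr(VI) the value of Cdk17 (-0.54 ± 0.62) was among the largest, and for recovery the largest were those of Cdk18 (0.56 ± 0.34) and Ccng2 (0.56 ± 0.73). In the interaction with Cr(VI) they were those of Ccnl1 (1.00 ± 1.01) and Cdk8 (0.78 ± 0.94), and in that with recovery Ccnl1 (0.74 ± 1.43) and Ccng1 (0.72 ± 1.46).

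Some of the genes that act in multiciliated cells, as Ccno does, had few counts and others did not. Of 20 such genes, Ccno not counted, 19 were in the table, Cdc20b being the 1 without a row. The 6 that were not tested had median levels over the 20 libraries of 0 to 0.0968 CPM, and of the 13 tested 3 had a median under 1 CPM: Mcidas (0.159 CPM), Deup1 (0.252 CPM) and Foxj1 (0.406 CPM). The other 10 had medians of 1.06 to 22.1 CPM, which is not per length and so does not rank the genes; among them were Rfx2 (3.45 CPM) and Plk4 (22.1 CPM), the kinase gene that starts centriole duplication. Of the 13 none passed with B[a]P in any history or in the tests of growth history and interaction. Foxj1, the master regulator of motile cilia, had at most 0.731 CPM with B[a]P and at most 1.14 CPM with DMSO. Its log2 fold change in control-grown cells was -0.27 ± 0.55, where Ccno stood at 4.12. The largest B[a]P values there were those of the ciliary transcription factor gene Rfx3 (-2.09 ± 0.70, adjusted p = 0.19, or 0.00243 with the block), which spans 253 kb, and of the axonemal gene Ccdc40 (0.98 ± 0.35, adjusted p = 0.228, or 0.0462 with the block). With the block 1 of the 13 rose in control-grown cells, Ccdc40, and 3 fell, Rfx3, Plk4 (-0.92 ± 0.79, adjusted p = 0.892 without and 0.0399 with it) and the centriole gene Cep63 (-0.60 ± 0.33, adjusted p = 0.573 and 0.0165), where 7.57% of all genes rose and 9.15% fell. The block called 1 in Cr(VI)-grown cells, Rfx3, and none in recovered cells. By size the largest values in Cr(VI)-grown cells were those of Ccdc39 (1.61 ± 1.19) and Rfx3 (-1.48 ± 0.70, adjusted p = 0.579 without the block and 0.0272 with it), and in recovered cells those of Ccdc40 (1.21 ± 0.50) and Ccdc39 (1.21 ± 1.69). For growth with Cr(VI) they were those of Deup1 (0.84 ± 0.67) and Rfx3 (-0.69 ± 0.67), and for recovery those of Mcidas (-1.30 ± 1.10) and Cetn2 (-0.98 ± 0.74). In the interaction with Cr(VI) they were those of Ccdc39 (1.33 ± 1.66) and Cep63 (0.78 ± 0.47), and in that with recovery Ccdc39 (1.89 ± 2.38) and Deup1 (-1.12 ± 1.51).

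Between passage 25 and passage 20 the counts in the lists are read against the 10.1% of all genes that rose and the 9.29% that fell. The block compares fitted replicate 1 levels here, so its results are no independent check. In the G1 and S phase list 2 of 36 rose, Myc (0.70 ± 0.16, adjusted p = 0.00915) and Fbxl12 (0.65 ± 0.18, adjusted p = 0.024), and 4 fell, Kpna2 (-0.56 ± 0.14), Cdc25a (-0.50 ± 0.13), Skp1 (-0.85 ± 0.23) and Max (-0.50 ± 0.16). Skp1 (adjusted p = 0.052) and Max (adjusted p = 0.0986) did not pass with the block. With the block 4 of the 36 rose and 5 fell, where 11% of all genes rose and 12.8% fell. Mycn, with 1.57 ± 0.67 (edgeR adjusted p = 0.111), was among those that passed with the block alone (adjusted p = 0.00903). Of the 28 less studied cyclins and kinases Cdk10 (1.18 ± 0.37) and Ccni (0.84 ± 0.27) rose, and Cdk18 (-1.15 ± 0.17, adjusted p = 0.000819), Cdk11b (-0.78 ± 0.23), Ccnk (-0.50 ± 0.15) and Cntd1 (-0.72 ± 0.24) fell. Ccni (adjusted p = 0.338), Cdk11b (adjusted p = 0.1) and Cntd1 (adjusted p = 0.577) did not pass with the block, while Ccng1 (-1.16 ± 0.52) and Cdk14 (-0.89 ± 0.51) were the largest of those that passed neither way. Of the 13 multiciliated cell genes Foxj1 (1.53 ± 0.39, adjusted p = 0.0183, or 0.0664 with the block) and Rfx2 (0.76 ± 0.23, adjusted p = 0.0348) rose, and Deup1 (-0.95 ± 0.46) and Sass6 (-0.94 ± 0.42) had the largest values of the rest. Apart from those of Myc, Kpna2 and Cdk18, each of these list calls made without the block ended when 1 library was left out. That held for any 1 of 2 libraries for Foxj1 and of 8 to 14 for the others. These fits also reran the count filter, so the losses cannot be credited to the libraries alone.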

How the data were processed

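RNA of Hepa-1 cells was sequenced in 20 libraries, 10 groups of 2. The deposited table holds raw counts per Entrez gene ID. Per the submitters' processing notes, TopHat, DESeq, bcl2fastq and CASAVA 1.8 were used with the build mm10; the program that counted reads, its annotation and its strand setting were not found in the labels or files, so a gene cannot be told from an antisense partner. Symbols and coordinates came from RefSeq's GRCm38.p6 table (23275 of 23373 IDs matched), exon lengths from GENCODE M21. Totals ran from 20976045 to 37930720 counts, so low counts limit Ccno most.

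The main test was edgeR's (4.0.16, under R 4.3.3) on the counts as deposited: filterByExpr (14343 genes), TMM scaling, and a quasi-likelihood fit with 1 mean per group over all 20 libraries (10 residual degrees of freedom), two-sided, with Benjamini-Hochberg adjustment over all genes and a threshold of 0.05. CPM uses TMM-scaled library sizes. Correlations used log2 CPM with a prior count of 2. The procedure was run on simulated counts with less spread between libraries than the main fit found and no replicate set effect. That run does not show how the test behaves on these data. Alternatives were DESeq2 1.42.0, RLE scaling, no count filter and a replicate block within each passage (8 residual degrees of freedom). The block takes replicate 1 as its reference, so between passages it compares fitted replicate 1 levels. Other fits left out each library, or the replicate 2 libraries of passage 25, the latter added after seeing the data. These reran the count filter with a smallest group of 1 library. Without the replicate 2 libraries each passage 25 group holds 1 library, so only log2 values are given. Replicate differences correlated between groups at 0.81 to 0.92 at passage 25 (15 pairs) and 0 to 0.59 at passage 20 (6 pairs), so the numbers pair libraries at passage 25, from the data and not the labels.

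The 10 genes and the gene lists were chosen with earlier results of these data known. Named are all 10 genes, list genes past the threshold (or else the 2 largest changes), genes within 100 kb of Ccno and Cdk6, and the 5 genes most like each. Some values that this rule covers are not reported here. Comparisons share control libraries and are not independent.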

Additional observations from a re-analysis of the deposited data

How the results depend on the processing

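Alternatives moved counts of calls more than values. Genes past the threshold with B[a]P in control-grown cells numbered 316, against 773 by DESeq2, 178 with no count filter, 2399 with the replicate block and 1052 without the replicate 2 libraries of passage 25, a choice made after seeing the data. In Cr(VI)-grown cells they numbered 135, against 473, 70, 1620 and 772 in the same order, and in recovered cells 8, against 105 by DESeq2, 215 with the block and 4 without those libraries. G1 and S phase genes past the threshold numbered 1 in control-grown cells, against 4 by DESeq2, 15 with the block and 6 without those libraries, and 0 in Cr(VI)-grown cells, against 3, 7 and 3; the block called 1 in recovered cells and 3 for growth with Cr(VI). For growth with Cr(VI) DESeq2 called 13 genes and the block 531, and between passages DESeq2 called 4186, against 2779. Leaving out 1 library gave 68 to 150 genes in control-grown, 27 to 90 in Cr(VI)-grown and 0 to 5 in recovered cells, 0 to 1 G1 and S phase genes in the first 2, and 1593 to 4527 genes, 2 to 8 of them G1 and S phase genes, between passages; all other such counts stayed at 0.

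Ccno, Cdk6, Ccnd1 and Ccne1 kept their direction with B[a]P in the 3 histories under every alternative. Other signs turned, none of them of a value that had passed the test, and the cause was not tested. With B[a]P in control-grown cells, where these genes have no test, Ccnd3 was -0.06, against 0.03 with the block and 0.24 without the replicate 2 libraries of passage 25, and Cdkn1b was 0.05, against -0.05 without those libraries. For growth with Cr(VI), Ccne1 was 0.02 by DESeq2 and RLE scaling and Cdk6 0.09 without the replicate 2 libraries of passage 25. For recovery, Ccnd3 was 0.00 with no count filter and Cdk2 0.01 without those libraries, where the interaction with recovery was -1.69 for Ccno and -0.39 for Ccne1. Between passages, Ccno was -0.11 with the block and without those libraries, Ccne1 0.02 by DESeq2 and RLE scaling, and Ccne2 0.21 with the block and 0.33 without those libraries. The block changed no call of the 9 genes, though between passages it compares fitted replicate 1 levels.

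Leaving out 1 library turned the sign of these values, given as the lowest and highest log2 value. With B[a]P in control-grown cells, Ccnd3 from -0.34 to 0.40, Ccne2 from -1.65 to 0.47, Cdk4 from -0.29 to 0.14 and Cdkn1b from -0.16 to 0.34. In Cr(VI)-grown cells, Ccne2 from -1.09 to 0.40 and Cdk2 from -0.05 to 0.20. In recovered cells, Ccnd3 from -1.25 to 1.19, Ccne2 from -2.77 to 1.06, Cdk2 from -0.53 to 0.03, Cdk4 from -1.09 to 0.33 and Cdkn1b from -0.04 to 1.16. For growth with Cr(VI), Ccnd3 from -0.06 to 0.68, Ccne1 from -0.16 to 0.11, Ccne2 from -1.29 to 0.69, Cdk4 from -0.15 to 0.30, Cdk6 from -0.23 to 0.09 and Cdkn1b from -0.43 to 0.14. For recovery, Ccnd3 from -1.28 to 0.91, Ccne1 from -0.76 to 0.11, Ccne2 from -2.78 to 2.17, Cdk2 from -0.36 to 0.10, Cdk4 from -0.31 to 0.77 and Cdkn1b from -0.73 to 0.38. In the interaction with Cr(VI), Ccnd1 from -0.15 to 0.09, Ccne1 from -0.29 to 0.07, Ccne2 from -0.69 to 1.42, Cdk4 from -0.77 to 0.04 and Cdkn1b from -0.10 to 0.47. In the interaction with recovery, Ccno from -0.90 to 1.25, Ccnd3 from -1.24 to 1.20, Ccne1 from -0.66 to 0.57, Ccne2 from -2.32 to 2.63, Cdk2 from -0.13 to 0.43, Cdk4 from -1.10 to 0.33, Cdk6 from -0.65 to 0.15, Cdkn1b from -0.38 to 0.83 and Cdkn1a from -0.97 to 0.03. Between passages, Ccno from -0.02 to 0.24 and Ccne1 from -0.11 to 0.07.

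The 2 libraries a group, low counts of Ccno with DMSO and the replicate 2 libraries of passage 25 limit these results most.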
